A study of Canis lupus familiaris with 6 samples.

Results

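Titin, the M-band proteins and the proteins that set thin filament length were followed across left ventricular RNA of 6 dogs, through 8 genes: TTN, MYOM1, MYOM2, MYBPC3, LMOD2, TMOD1, CAPZB and FHL2. Every probe set of the array whose annotation held exactly 1 gene symbol, equal to one of these, was taken without any filter. This gave 48 probe sets of the 42924 on the array that are not controls. TTN had 20 of them, MYOM2 10, MYBPC3 and LMOD2 4 each, TMOD1 and CAPZB 3 each, and MYOM1 and FHL2 2 each. The probe sets were taken by gene name, without regard to their values, but the 8 genes were chosen with earlier results of these arrays known.

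The affected dogs were 3 Great Danes that had cardiomyopathy, a female of 9 years (affected 1) and 2 males of 7 years (affected 2 and affected 3). The controls came from 3 other breeds. Control 1 was a male Labrador retriever aged 12 years, control 2 a female St. Bernard aged 10 and control 3 a male Greater Swiss Mountain dog aged 4. The labels name no drug, allele or other treatment for either group, and all tissue had been frozen before RNA was extracted. Each dog gave 1 array, and breed and disease cannot be told apart.

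Titin is a giant elastic protein that runs from the Z-disc to the M-band, and its isoforms set much of the passive stiffness of heart muscle. Myomesins cross-link thick filaments and titin at the M-band in the middle of the sarcomere, and cardiac myosin-binding protein C sits along the thick filament and tunes cross-bridge cycling. At the thin filament, leiomodin lengthens and tropomodulin caps the pointed end, while capping protein closes the barbed end at the Z-disc. Hereditary cardiomyopathies in people and animals include variants of titin and of cardiac myosin-binding protein C.

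The deposited values are on the log2 scale, and the median of each probe set across the 6 dogs is 0. A value of 0 is therefore the middle of these dogs and says nothing about how strongly a gene was expressed. For the same reason one gene cannot be set against another by level, and the labelled tissue could not be checked by the level of its markers. All differences below are affected minus control, from n = 3 against n = 3 arrays, with the moderated standard error (SE) of the limma fit over all 42924 probe sets. Probe sets are numbered within each gene from the widest to the narrowest range over the arrays. In bulk tissue, fewer cells of a type and less RNA per cell cannot be told apart.

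No probe set of the 8 genes passed the Benjamini-Hochberg threshold of 0.05 over all probe sets in limma (adjusted p from 0.296 to 0.944), where 0.00233% of all probe sets, 1 in number, passed. Among the 48, the adjusted p of 0.296 was shared by unadjusted p from 0.0099 (MYBPC3 probe set 4) to 0.134 (TTN probe set 9). It therefore does not rank the probe sets that have it. At an unadjusted p under 0.05, 6 of the 48 were higher in affected hearts and 1 was lower, shares of 12.5% and 2.08%. Over all probe sets these shares were 4.53% and 6.32%. In a limma fit of only the 60% of probe sets with the widest range, 4 of 45 from the 8 genes were higher and 2 lower. Of all 25754 probe sets in that fit, 1757 were higher and 771 lower. The 6 higher ones were 4 probe sets of MYOM2 and 1 each of TTN and MYBPC3, and the lower one was of TTN. The count of 6 fell to 2 without affected 3, where 3 were lower, and was 4 without control 1 or without control 2. Without affected 2, 6 were higher and 4 lower.

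The 48 probe sets varied more from dog to dog than the array as a whole. Their median range over the 6 arrays was 1.20 on the log2 scale against 0.49 over all probe sets. The median difference was 0.20 over the 48, with 28 above 0 and 20 below, and -0.08 over all probe sets. Affected and control values did not overlap in 7 probe sets with affected higher (14.6%, against 5.37% over all) and in 4 with affected lower (8.33%, against 46.9% over all). Among the 60% of all probe sets with the widest range, these background shares were 8.74% and 23.7%. The high background share of lower values came with a small offset between arrays. The 8 probe sets of unexpressed tags had medians of 0.05, 0.01 and 0.11 on control 1 to control 3 and of -0.03, -0.03 and -0.01 on affected 1 to affected 3. The part of this offset in single differences was not tested, and it matters most for probe sets of small range, of which the 8 genes had 3 (all TTN) under the 40th percentile of range, 0.351.

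**Figure D1:**
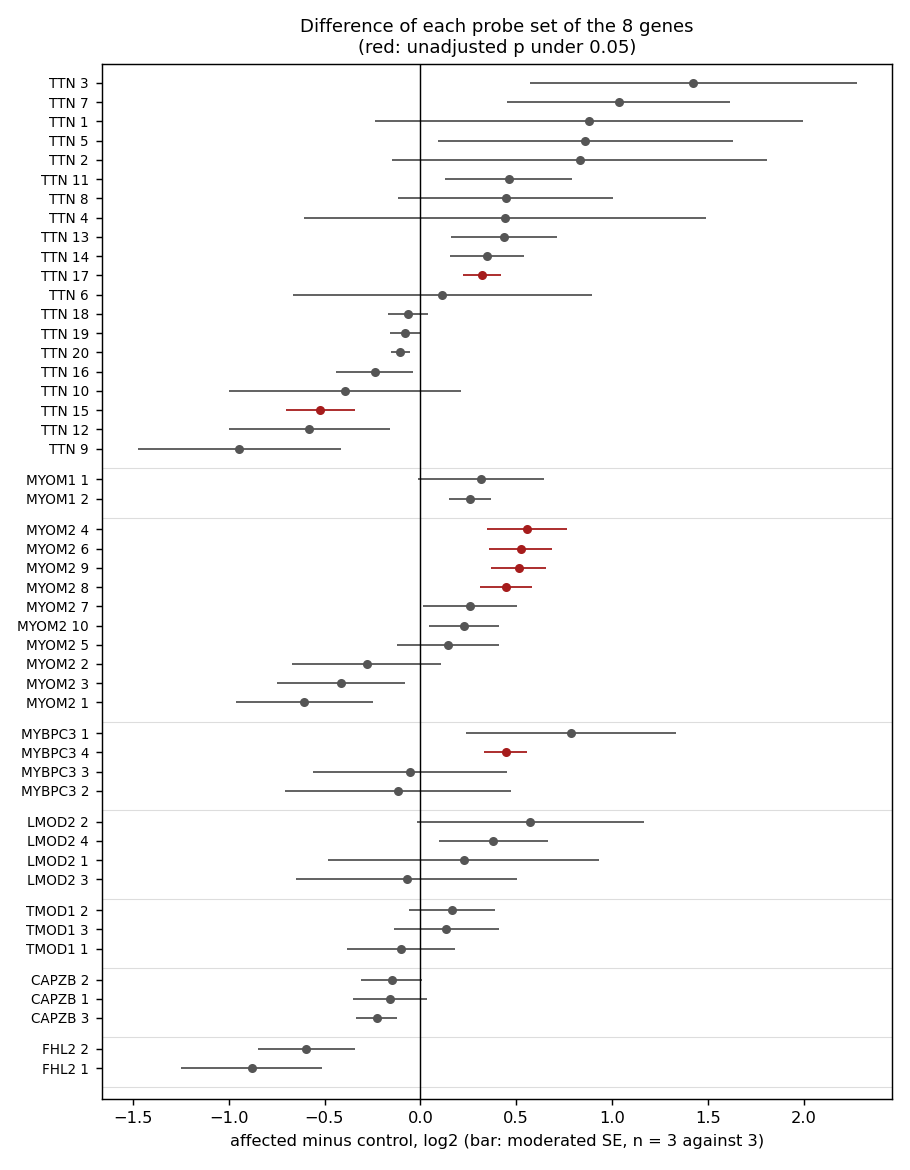
Difference between affected and control arrays (horizontal axis, log2) for each of the 48 probe sets of the 8 genes, with bars of 1 moderated SE (n = 3 against 3) and an unadjusted p under 0.05 in red. TTN spans from -0.94 to 1.42, both FHL2 and all 3 CAPZB probe sets lie below 0, and 4 of the 7 red points belong to MYOM2.

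The probe sets of titin disagreed in direction and in size. Of 20, 12 had differences above 0 and 8 below, from -0.94 to 1.42 with a median of 0.34. The annotation splits them between Entrez Gene numbers 478819 and 478820, with 10 probe sets each, and only the second is in the current RefSeq gene table of the dog, under the symbol TTN. Each of these sets held 6 differences above 0 and 4 below, with medians of 0.22 and 0.44. Where along this very long transcript each probe set lies is not given in the sources used here, so isoforms could not be assigned.

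The 13 TTN probe sets with a range of at least 1, a bound set after the values were seen, showed dogs that differed within the affected group. They include pairs on one target, TTN probe sets 2 and 3, 9 and 12, and 11 and 13, so they are not 13 separate measurements. On affected 1 all 13 were below 0, from -1.83 to -0.18. On affected 2, 12 of 13 were above 0 with a median of 0.69, and on affected 3, 11 of 13 with a median of 0.56. Affected 1 was below both other affected dogs in 12 of the 13. Controls also split: control 3 had a median of -0.47, control 1 one of -0.22 and control 2 one of 0.11. Control 3 was the lowest array in 6 of the 13 and affected 1 in 5. Over all 42924 probe sets control 3 was lowest in 7772 and affected 1 in 8912 (20.8%).

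The widest TTN probe set, number 1, stood at -0.47, -0.76 and 0.47 on control 1 to control 3 and at -1.77, 2.05 and 1.60 on affected 1 to affected 3. The groups overlapped, since affected 1 was the lowest of all 6 arrays and the other affected dogs were the highest. Its difference was 0.88 (SE 1.12, limma adjusted p = 0.577), with a 95% interval from -1.97 to 3.73. Without affected 1 it was 2.08, and without affected 2 it was 0.16.

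The largest TTN difference, in TTN probe set 3, was 1.42 (SE 0.85, limma adjusted p = 0.300). Control values were -0.63, 0.55 and -1.89, and affected values were -0.55, 1.32 and 1.51. Here affected 1 lay among the controls and the other affected dogs above them. Its partner on the same target, TTN probe set 2, differed by 0.83 (SE 0.98), and the pair stood 1.47 apart on control 3. TTN probe set 7 differed by 1.03 (SE 0.58), with -0.64, 0.37 and -0.58 in controls and -0.37, 1.41 and 1.22 in affected hearts. Affected 1 was again between control values, and both other affected dogs were above all of them.

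Some TTN probe sets ran the other way. TTN probe set 9 stood at 0.25, -0.25 and 0.38 in controls and at -1.64, 0.28 and -1.08 in affected hearts, a difference of -0.94 (SE 0.53, limma adjusted p = 0.296). Affected 1 and affected 3 were below every control and affected 2 was within them. Its partner on the same target, TTN probe set 12, differed by -0.58 (SE 0.42), with overlap. Affected 3 was thus on the high side in the probe sets of the previous paragraph and on the low side in these.

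The TTN probe sets with the smallest p opposed each other. TTN probe set 17 was at -0.28, -0.01 and -0.24 in controls and 0.21, 0.01 and 0.20 in affected hearts, without overlap, though control 2 and affected 2 were only just apart. It differed by 0.32 (SE 0.10, limma adjusted p = 0.296), or 1.25-fold. TTN probe set 15 was at 0.03, 0.16 and 0.12 in controls and -0.55, -0.03 and -0.67 in affected hearts. It did not overlap either, and differed by -0.52 (SE 0.18, limma adjusted p = 0.296), or 1.44-fold lower, with affected 2 again nearest to the controls. Without affected 1 its unadjusted p was 0.094, and that of TTN probe set 17 was 0.072 without control 1 and 0.105 among the upper 60% of probe sets by range.

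TTN probe sets 18, 19 and 20, by contrast, ranged over only 0.32, 0.29 and 0.18 across all 6 dogs, and differed by -0.06, -0.08 and -0.10. Their ranges were under the 40th percentile of the array. The first turned to 0.01 under both scaling alternatives, quantile normalization and subtraction of array medians, and TTN probe set 6 turned from 0.11 to -0.09 under quantile normalization.

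**Figure D2:**
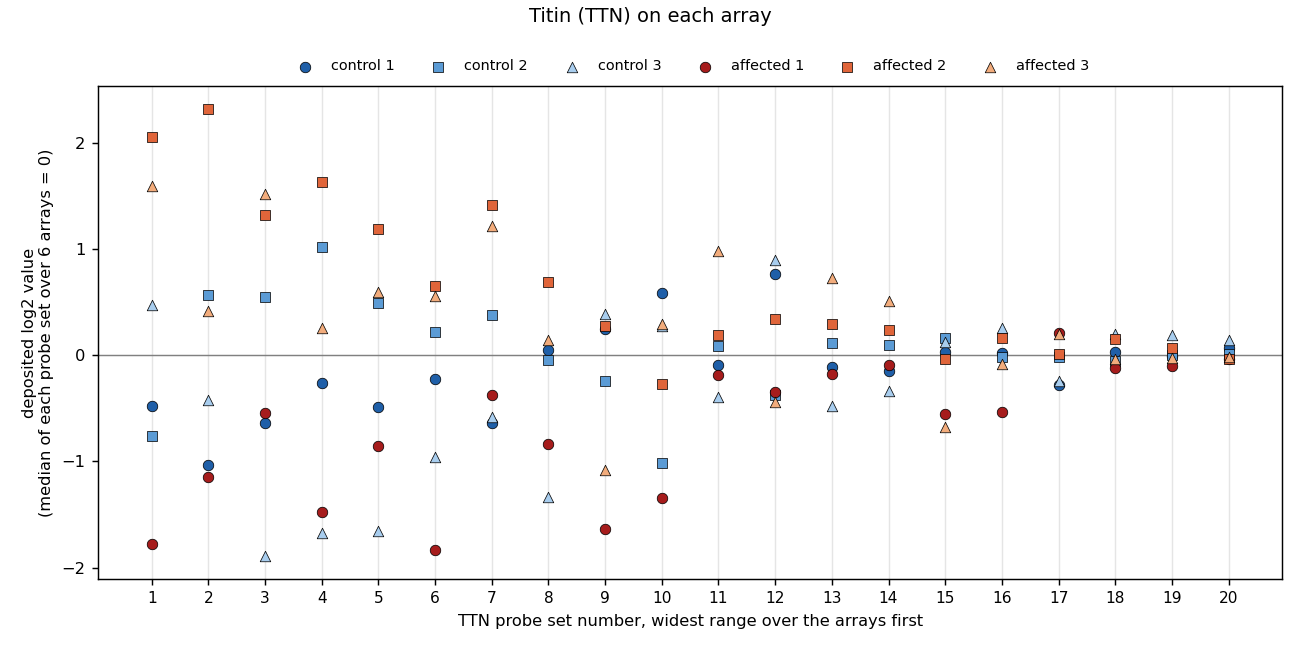
Deposited log2 value of each of the 20 TTN probe sets (horizontal axis, widest range at left) on the 6 arrays, each point 1 dog. In the 13 widest probe sets affected 1 lies below 0 and affected 2 above 0 in all but 1, control 3 is the lowest point in 6 and affected 1 in 5, and the probe sets at right hardly vary.

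As a description of likeness over the 6 arrays, the genes nearest to the widest 2 TTN probe sets by root mean square difference were listed. For TTN probe set 1 these were ZCCHC24 (0.72 on the log2 scale), C7H1orf43 (0.72) and ROCK2 (0.74). For TTN probe set 2 they were THOC7 (0.36), CDH7 (0.37) and TERF2IP (0.42). None of these 6 is in the lists of sarcomere genes used here.

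At the M-band, MYOM2, which encodes the myomesin typical of adult fast and cardiac fibres, was higher in every affected heart than in any control in 4 of its 10 probe sets. The 4 probe sets at an unadjusted p under 0.05 were probe sets 4 and 8, which form a pair on one target, and 6 and 9, which form another. Their differences lay between 0.45 and 0.56, and the groups did not overlap in any of them. Lack of overlap with affected higher was found in 5.37% of all probe sets and in 8.74% of the upper 60% by range, to which these belong. They are 2 targets and not 4 separate measurements. The count of 4 MYOM2 probe sets fell to 1 without control 2, without affected 1 or without affected 3, and was 6 without control 3, while each of the 4 differences stayed above 0 with any array left out.

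MYOM2 probe set 9 was at -0.47, -0.47 and -0.05 on control 1 to control 3 and at 0.25, 0.05 and 0.26 on affected 1 to affected 3. It differed by 0.51 (SE 0.14, limma adjusted p = 0.296), or 1.43-fold, with a 95% interval from 0.15 to 0.88. Control 3 and affected 2 were the nearest of the 2 groups. MYOM2 probe set 8 was at -0.41, -0.09 and -0.07 in controls and at 0.32, 0.07 and 0.39 in affected hearts, and differed by 0.45 (SE 0.14, limma adjusted p = 0.296). Here too affected 2 was the lowest affected dog, next to control 3. The third pair, probe sets 7 and 10, differed by 0.26 and 0.23 (SE 0.25 and 0.18) and overlapped, since control 3 was above affected 2.

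Other MYOM2 probe sets did not share this. Of the 3 under Entrez Gene number 491446, the one that RefSeq lists as MYOM2, MYOM2 probe set 1 differed by -0.60 (SE 0.36, limma adjusted p = 0.299), MYOM2 probe set 2 by -0.28 (SE 0.39) and MYOM2 probe set 5 by 0.15 (SE 0.27). The 7 under 491504, a number that is absent from that RefSeq table, had a median of 0.45 against -0.28 for these 3, with MYOM2 probe set 3 at -0.41 (SE 0.33) as its only member below 0. On control 3 the 3 probe sets under 491446 were each the highest of the 6 arrays, at 0.83, 0.87 and 0.45. Control 3 was also highest in MYOM2 probe sets 3 and 7 under 491504, and it was the highest array in 49.99% of all probe sets. Without control 3 MYOM2 probe set 2 differed by 0.07 and MYOM2 probe set 1 by -0.33. The split by gene number was noticed in these values and was not tested.

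MYOM1, the myomesin found in all striated muscle, differed by 0.26 (SE 0.11, limma adjusted p = 0.296) in MYOM1 probe set 2. This probe set was at -0.04, -0.26 and -0.02 in controls and at 0.12, 0.02 and 0.32 in affected hearts, without overlap. In MYOM1 probe set 1 the difference was 0.32 (SE 0.33), with controls at -0.04, -0.84 and 0.04 and affected hearts at 0.27, -0.44 and 0.29. Control 2 was the lowest array in both. Without control 2 the difference of MYOM1 probe set 1 was 0.04.

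MYBPC3, the gene of cardiac myosin-binding protein C, split by probe set. MYBPC3 probe set 4 was at -0.09, -0.27 and -0.11 in controls and at 0.09, 0.31 and 0.46 in affected hearts, without overlap. It differed by 0.45 (SE 0.11, limma adjusted p = 0.296), or 1.36-fold, with a 95% interval from 0.16 to 0.73. This was the smallest p among the 48, and it stayed under 0.05 unadjusted with each array left out in turn (0.003 to 0.034). MYBPC3 probe set 1 differed by 0.79 (SE 0.55, limma adjusted p = 0.339), with affected 1 at -0.41 and affected 2 and affected 3 at 0.83 and 1.59, against -0.35, 0.31 and -0.31 in controls. As in wide TTN probe sets, affected 1 was low and both other affected dogs were high.

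The remaining MYBPC3 pair, probe sets 2 and 3, differed by -0.12 (SE 0.59) and -0.05 (SE 0.51). On the first, control 2 was at -1.34 and affected 1 at -1.03, the other controls at 0.30 and 0.37, and affected 2 and affected 3 at 0.23 and -0.23. The 2 females were thus the lowest dogs, 1 from each group, in both probe sets of this pair. The second difference turned to 0.02 when array medians were subtracted, and both turned above 0 without affected 1 (0.22 and 0.24). Both were also above 0 without control 1 and without control 3, where the smallest MYBPC3 differences were 0.14 and 0.18.

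**Figure D3:**
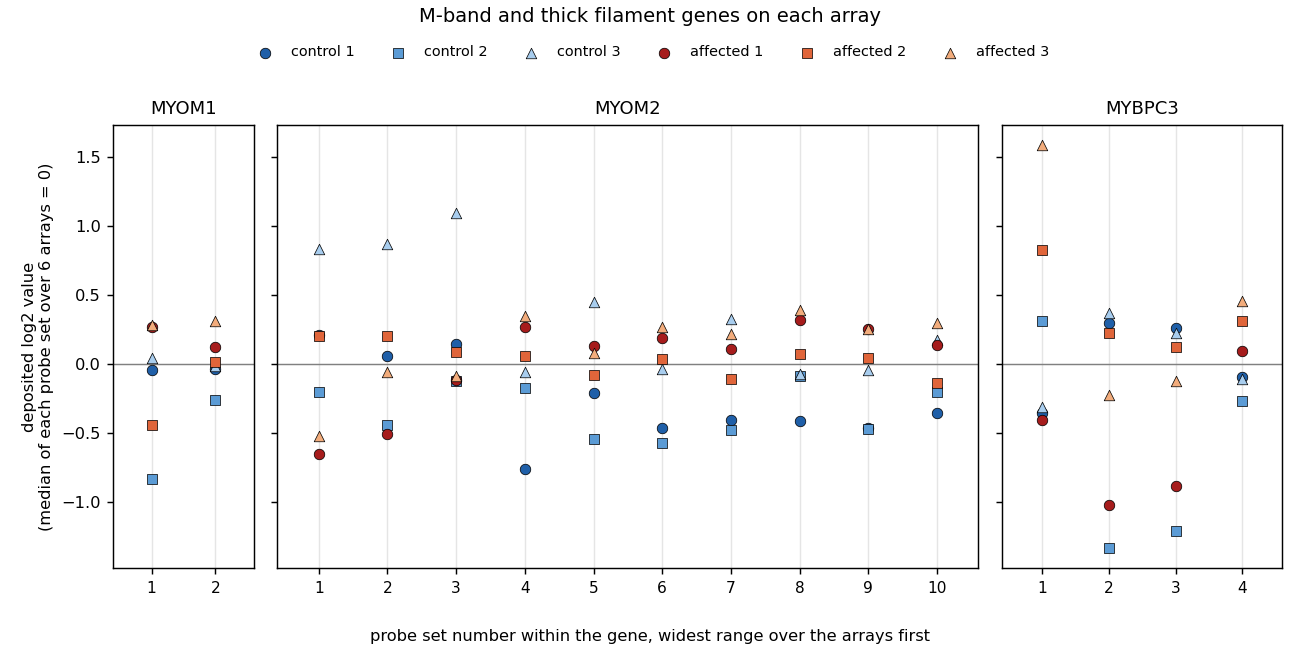
Deposited log2 value of each probe set of MYOM1, MYOM2 and MYBPC3 on the 6 arrays, each point 1 dog, on a shared vertical axis. MYOM2 probe sets 4 and 6 to 10 have control 1 and control 2 lowest, control 3 stands highest in the other 4, and control 2 and affected 1 are low in MYBPC3 probe sets 2 and 3.

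At the pointed end of the thin filament, LMOD2 (leiomodin 2, which lengthens the filament) had no difference beyond the spread of the dogs. Its 4 probe sets differed by 0.57 (SE 0.59), 0.38 (SE 0.29), 0.22 (SE 0.71) and -0.07 (SE 0.58), with limma adjusted p from 0.363 to 0.935. The widest, probe set 1, was at 0.39, -1.43 and 0.55 in controls and at -0.45, -0.39 and 1.03 in affected hearts. Its 95% interval ran from -1.58 to 2.03, so these arrays leave the direction and the size of any difference unsettled.

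The spread of LMOD2 came from the same dogs each time. Control 2 was the lowest array in all 4 probe sets, from -0.85 to -1.43, and affected 3 the highest in 3 of 4. Without control 2 the differences were 0.11, 0.10, -0.41 and -0.61, and under subtraction of array medians the last of them, -0.07 with all arrays, was 0.0016. Control 2 was also the lowest array in both MYOM1 and 3 of 4 MYBPC3 probe sets, so in 9 of 10 for these 3 genes, against 7.11% of all probe sets on the array. The 10 include pairs on one target, LMOD2 probe sets 1 and 3 and MYBPC3 probe sets 2 and 3. Over all 48 probe sets control 2 was lowest in 14 (29.2%). These included 5 of 10 for MYOM2 and none for TTN, TMOD1, CAPZB or FHL2. This pattern was noticed in the values and was not tested.

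TMOD1 (tropomodulin 1, the pointed end cap) was higher on control 2 and affected 1, the female of each group, than on any other array in all 3 of its probe sets. The same pair was highest in 2.72% of all probe sets. TMOD1 probe set 3 was at -0.21, 0.54 and -0.19 in controls and at 0.54, 0.08 and -0.08 in affected hearts. The 2 females thus had nearly the same value, and the 4 males lay between -0.21 and 0.08. TMOD1 probe set 2 was at 0.38 and 0.28 on these females, and TMOD1 probe set 1 at 0.37 and 0.30. Control 1, a male and the oldest dog, was at -0.09, -0.20 and -0.21 in TMOD1 probe sets 1 to 3. This pattern was noticed in the values and was not tested.

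Between affected and control hearts TMOD1 differed by 0.17 (SE 0.22), 0.14 (SE 0.27) and -0.10 (SE 0.28), with limma adjusted p from 0.603 to 0.801. The 95% intervals together ran from -0.82 to 0.83.

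CAPZB, the beta subunit of the capping protein of the barbed end, differed by -0.15 (SE 0.16), -0.16 (SE 0.19) and -0.23 (SE 0.11), all overlapping, with limma adjusted p from 0.296 to 0.562. Affected 1 was the lowest array in each, at -0.45, -0.51 and -0.33, as it was in 20.8% of all probe sets. The other 5 dogs stayed between -0.11 and 0.21 in all 3. Of these, CAPZB probe sets 1 and 3 form a pair on one target, so the 3 are not separate measurements. Without affected 1 the differences were 0.01, 0.04 and -0.14.

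FHL2, a LIM domain protein that binds titin and links it to metabolic enzymes and signalling, was lower in every affected heart than in any control in both of its probe sets. FHL2 probe set 1 was at 0.27, 0.12 and 0.54 in controls and at -0.24, -0.12 and -1.36 in affected hearts. It differed by -0.88 (SE 0.37, limma adjusted p = 0.296), or 1.84-fold, with a 95% interval from -1.82 to 0.06. FHL2 probe set 2 was at 0.05, 0.20 and 0.13 in controls and at -0.35, -0.05 and -1.00 in affected hearts. It differed by -0.59 (SE 0.25, limma adjusted p = 0.296), or 1.51-fold. Affected 3 was far the lowest dog in both, and affected 2 lay nearest to the controls.

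Lack of overlap with affected lower was common, in 46.9% of all probe sets and in 23.7% of the upper 60% by range, to which both FHL2 probe sets belong. Without affected 3 the FHL2 differences were -0.49 and -0.33, and without affected 2 they were -1.11 and -0.80. They kept their direction in all 13 alternatives.

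**Figure D4:**
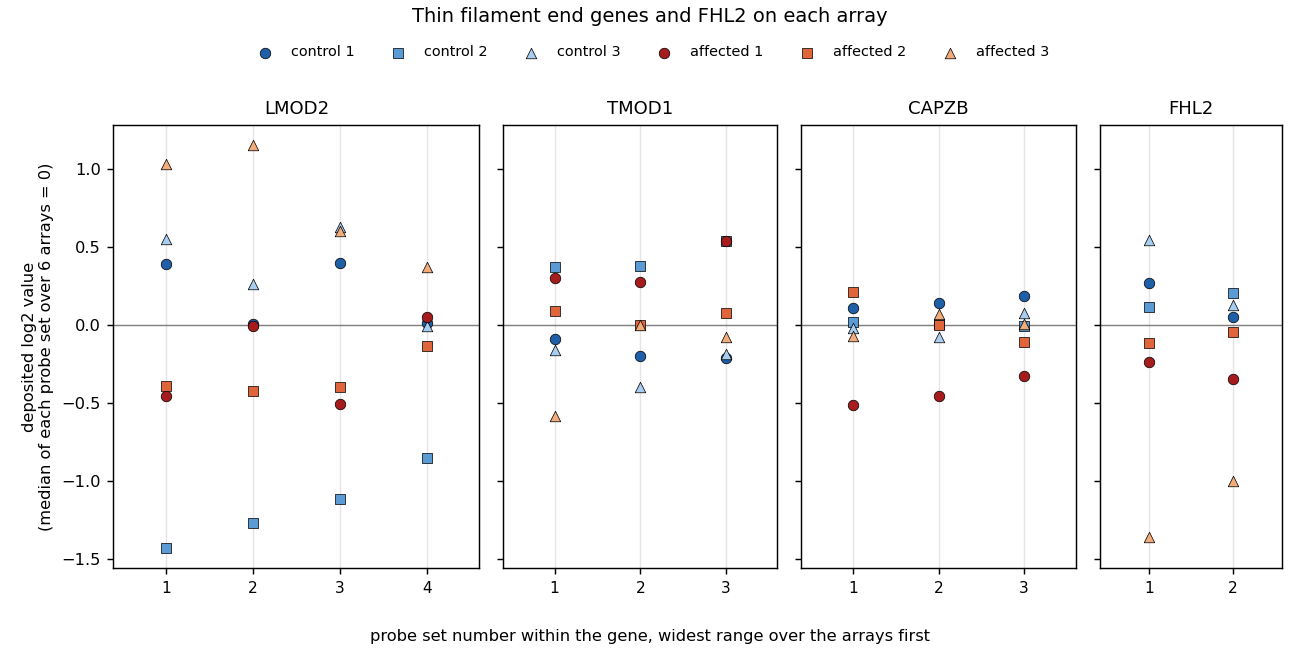
Deposited log2 value of each probe set of LMOD2, TMOD1, CAPZB and FHL2 on the 6 arrays, each point 1 dog, on a shared vertical axis. Control 2 is lowest throughout LMOD2, control 2 and affected 1 are highest throughout TMOD1, affected 1 is lowest throughout CAPZB, and the affected dogs lie below the controls in FHL2, affected 3 farthest.

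Markers of other cells moved between the arrays as well. The fibroblast markers (10 genes, 25 probe sets, 22 of them above 0) had a median difference of 1.83. At an unadjusted p under 0.05 in limma 11 of the 25 were higher and 0 lower, against 4.53% and 6.32% of all probe sets. Fibroblast medians were -0.26, -0.08 and -1.65 on control 1 to control 3 and 1.14, 0.06 and 0.97 on affected 1 to affected 3. MYOM2 in its probe sets 4, 6, 8 and 9 was also lowest of the affected dogs on affected 2, and FHL2 was lower on affected 1 and affected 3 than on affected 2. Control 3, the lowest array for the fibroblast markers, was instead the highest control in each of these MYOM2 probe sets, from -0.07 to -0.03. It was the highest control in FHL2 probe set 1 but not in FHL2 probe set 2. Macrophage markers (10 genes, 19 probe sets, 18 of them above 0) had a median difference of 0.89, with 0 at an unadjusted p under 0.05 in limma. Their medians were 1.21, -0.52 and -0.54 in controls and 2.02, -0.04 and 0.01 in affected hearts. The erythrocyte markers (2 of 5 genes named, 2 probe sets) had a median of 2.77 on control 2, the dog lowest throughout LMOD2, and of -0.13 to 0.52 on the other arrays. Endothelial markers (10 genes, 22 probe sets, 4 of them above 0) were at 0.46 on control 2 and at -0.27 to 0.14 on the others, with a median difference of -0.21. Adipocyte markers (7 genes) were at 1.06 on affected 1, the dog low in wide TTN and in all CAPZB probe sets, and at -0.12 to 0.13 on the others. Medians of the smooth muscle and pericyte markers lay between -0.15 and 0.11, and those of the lymphocyte markers between -0.05 and 0.13. Of the cardiomyocyte markers (16 of 18 genes named, 35 probe sets), 25 probe sets had differences above 0, with a median of 0.10. At an unadjusted p under 0.05 in limma 5 were higher and 0 lower, against 4.53% and 6.32% of all probe sets. Their medians lay between -0.16 and 0.07 on all arrays. MYH7, MYL2, MYL3, TNNT2, TNNI3, TNNC1, ACTC1, CSRP3 and ACTN2 of this list are also among the other sarcomere genes below. The counts of these lists are therefore not separate. Medians of the skeletal muscle markers lay between -0.03 and 0.12. The gap of control probes near the 3' end over those near the 5' end, larger where RNA is more degraded, was highest on affected 1 and affected 3 for beta-actin (0.31 and 0.58, against -0.18 on affected 2 and -0.34 to 0.11 in controls). For GAPDH it lay between -0.14 and 0.15. The part of these shifts in the values of the 8 genes was not tested.

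The other sarcomere genes were taken from lists of titin partners, M-band proteins, myosin-binding proteins, thin filament assembly factors, thick and thin filament proteins and FHL family members. Of 65 listed genes 59 had a named probe set, 146 in all. None of the 146 passed the adjusted threshold in limma (smallest adjusted p = 0.296). At an unadjusted p under 0.05, 19 were higher (13.0%, against 4.53% of all probe sets) and 5 lower (3.42%, against 6.32%). Their median difference was 0.05. In the limma fit of only the upper 60% of probe sets by range, 13 from these lists were higher and 2 lower. Fewer than the 146 were in that fit. Of all 25754 probe sets in it, 1757 were higher and 771 lower, so higher values were also the more common ones there. The 19 became 10 without affected 3 and 11 without control 3, and the 5 became 28 without control 2, where 12212 of all probe sets were lower.

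Among the titin partners and the splicing factor of titin, 28 of 42 probe sets were above 0, with a median of 0.18. ANKRD1 and ANKRD23, stretch-responsive ankyrin repeat proteins that bind titin, differed by 0.75 (SE 0.16) and 1.20 (SE 0.41) in their leading probe sets, and by at least 0.47 and 0.87 in all. ANKRD23 stood at -0.17, -0.32 and -1.32 in controls and at 0.17, 0.45 and 1.16 in affected hearts. TCAP, the cap of titin at the Z-disc, differed by 0.41 (SE 0.09), CRYAB, a small heat shock protein that binds titin's spring, by 0.48 (SE 0.19), and ACTN2, the Z-disc actinin, by 0.24 (SE 0.08) and -0.14 in its 2 probe sets. CAPN3, a protease anchored on titin, differed by -0.17 (SE 0.06) over a range of only 0.26. The probe sets given with an SE here had a limma adjusted p of 0.296.

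RBM20, the factor that splices titin, differed by 1.28 (SE 0.54, limma adjusted p = 0.296) in 1 of its probe sets and by 0.54 in the other. It was at 0.0027, -0.52 and -0.28 in controls and at 0.99, -0.0027 and 2.05 in affected hearts. Affected 2 was nearly level with control 1, and the other affected dogs were far above.

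Of the M-band list, with 9 probe sets of 4 genes, TRIM54, a muscle ubiquitin ligase, differed by 0.61 (SE 0.21). LRRC39, a myosin-binding M-band protein, differed by -1.31 (SE 0.70, limma adjusted p = 0.296), at 0.16, 0.36 and -0.16 in controls and -2.27, 0.31 and -1.60 in affected hearts. Its order of dogs, affected 1 and affected 3 low and affected 2 level with the controls, was that of TTN probe set 9. Of the 7 probe sets of the other myosin-binding proteins none passed an unadjusted p of 0.05 in limma, and the largest difference was -0.17, in MYBPC2.

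Thin filament length and assembly factors had 19 of 50 probe sets above 0 and a median of -0.09, near that of all probe sets. At an unadjusted p under 0.05 FHOD3, a formin that builds cardiac thin filaments, differed by 0.65 (SE 0.13) and 0.74 (SE 0.22), with a further probe set at -0.12. CAP2, an actin regulator, differed by 0.51 (SE 0.13). KLHL41, which stabilises nebulin in skeletal muscle, differed by -1.10 (SE 0.22), with no overlap, and by -0.20 in its second probe set. LMOD1, the smooth muscle leiomodin, differed by -0.41 (SE 0.16) and NEBL, the cardiac nebulin relative, by -0.18 (SE 0.06) in 1 of 8 probe sets. Nebulin itself (NEB) ran from -0.47 (SE 0.15) to 1.55 (SE 0.65) over its 8 probe sets.

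In the filaments themselves, TPM1, alpha tropomyosin, differed by 0.79 (SE 0.15) and 0.24 (SE 0.09) in 2 of its 4 probe sets at an unadjusted p under 0.05. Another differed by 1.45 but with an SE of 1.33, and the fourth was at -0.25. The thin filament list had 18 of 24 probe sets above 0 and a median of 0.22, with TNNT1 at 1.41 (SE 0.37), ACTC1 at 0.36 (SE 0.13), TNNC1 at 0.25 (SE 0.08) and ACTA1 at 0.23 (SE 0.09) and 0.19 (SE 0.07). The other probe set of each of the first 3 was at -0.08 for TNNT1, 0.13 for ACTC1 and 0.06 for TNNC1, and the third of ACTA1 was at 0.13. In the thick filament list MYL7, the atrial regulatory light chain, differed by 1.41 (SE 0.41) and MYH7 by 0.31 (SE 0.07) in 1 of 5 probe sets, with the others between -0.36 and 0.25. In the FHL family the largest difference was that of FHL1 at 1.06 (SE 0.50), opposite in sign to FHL2, and its 5 probe sets ran from -0.45 to 1.06. The probe sets given with an SE here had a limma adjusted p of 0.296, other than the TPM1 probe set at 1.45, with 0.444.

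**Figure D5:**
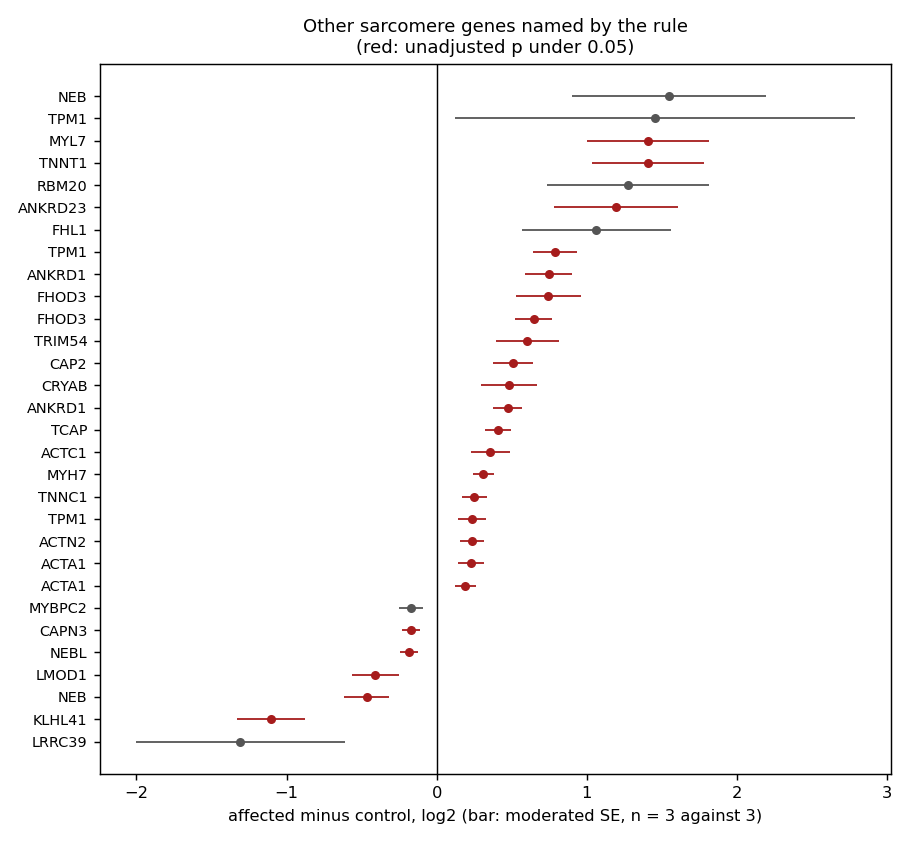
Difference between affected and control arrays (horizontal axis, log2) for the named probe sets of the other sarcomere genes, with bars of 1 moderated SE (n = 3 against 3) and an unadjusted p under 0.05 in red. 19 red points are above 0, from ACTA1 at 0.19 to MYL7 and TNNT1 at 1.41, and 5 are below, with KLHL41 lowest at -1.10.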

How the data were processed

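Left ventricular RNA of 6 dogs was hybridised to Affymetrix canine arrays, 1 per dog. The authors deposited 1 table of log2 values, in which every probe set is centred on its median over the arrays (largest absolute median 5e-07). GCRMA and MAS5 are named, without a role, in the submitters' processing notes, and the log base was inferred from them and from the range of the values. Genome build and probe positions are not given in the sources used here. Precision is limited by the number of arrays.

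Leaving out 111 control probe sets, the other 42924 were fitted without a filter in limma 3.58.1 (R 4.3.3; lmFit, eBayes, no covariate, two-sided; residual degrees of freedom 4, prior 1.13). Adjusted p is Benjamini-Hochberg over all of them. The annotation gave 1 symbol to 29254. Arrays are biological replicates per the labels, without identical values beyond 2 probe sets in any pair. The steps were tested on simulated data. The genes and lists were chosen with earlier results of these data known. All probe sets of the 8 genes are described. Genes of the other lists were named at an unadjusted p under 0.05 or as the largest difference of a list. Likeness was taken for the 2 probe sets with the widest range. Alternatives were the upper 60% by range, quantile normalization, subtracted array medians, sex, age, a robust variance prior, the replicate number as a block, and each array left out.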

Additional observations from a re-analysis of the deposited data

How the results depend on the processing

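No probe set of the 8 genes or of the other sarcomere lists passed the adjusted threshold in limma under any of the 13 alternatives; at an unadjusted p under 0.05 the main counts were 6 higher and 1 lower, and 19 higher and 5 lower. Over all probe sets 1 passed the adjusted threshold, 6 in the upper 60% by range and 0 after quantile normalization, with age or with the replicate block, and 0 to 5 with an array left out. The unadjusted counts over all probe sets were 1945 higher and 2713 lower (41.8% higher). They were 771 lower in the upper 60% by range (69.5% higher), 1097 lower with array medians subtracted (68.5% higher), and 2919 higher and 9745 lower with age. With an array left out they ran from 1097 to 3100 higher and from 655 to 12212 lower. For the 8 genes the lower count was 2 in the upper 60% by range, 0 after quantile normalization or with array medians subtracted, and 2 with age. With an array left out it ran from 0 to 4, and the higher count from 2 to 7. In the upper 60% by range, 13 probe sets of the other lists were higher and 2 lower. For these lists the lower count was 3 with array medians subtracted, 9 with sex, and 19 with age, where 33 were higher. With an array left out it ran from 1 to 28, and the higher count from 10 to 26.

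Of the 48 probe sets 32 kept their direction throughout. After quantile normalization TTN probe set 6 was -0.0869 and TTN probe set 18 0.0113. With array medians subtracted TTN probe set 18 was 0.00839, MYBPC3 probe set 3 0.0189 and LMOD2 probe set 3 0.0016. With an array left out, 16 changed sign. For TTN the ranges were -0.000163 to 0.86 (TTN probe set 8), -0.30 to 1.25 (TTN probe set 4), -0.32 to 0.93 (TTN probe set 6), -0.14 to 0.00634 (TTN probe set 18), -0.873 to 0.0578 (TTN probe set 10) and -0.0641 to 1.67 (TTN probe set 2). They were -0.584 to 0.0737 and -0.0752 to 0.42 for MYOM2 probe sets 2 and 5, -0.67 to 0.22 and -0.54 to 0.24 for MYBPC3 probe sets 2 and 3, -0.41 to 0.58 and -0.61 to 0.26 for LMOD2 probe sets 1 and 3, -0.045 to 0.38 and -0.29 to 0.16 for TMOD1 probe set 3 and TMOD1 probe set 1, and -0.249 to 0.0127 and -0.326 to 0.037 for CAPZB probe set 2 and CAPZB probe set 1. The cause of these changes was not tested. Deviations of same-numbered dogs correlated at 0.272, 0.147 and 0.0218. Control 1 and control 2 correlated best with the affected dog of the same number, and control 3 with affected 2 (0.0446). Whether the replicate numbers pair the dogs was not tested. With the replicate block, 6 probe sets of the 8 genes were higher and 1 lower, and 23 and 5 of the other lists. The median difference over all probe sets, -0.08, was -0.01 under both scaling alternatives.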
